A study of Mus musculus with 8 samples.

Results

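A set of 8 genes of red blood cells was followed in lungs of mice given lipopolysaccharide (LPS), namely the adult globin genes Hba-a1, Hba-a2, Hbb-bs and Hbb-bt and the erythroid genes Alas2, Slc4a1, Epb42 and Bpgm. They were taken by symbol as 8 of the 24584 genes of the tables, as a measure of blood in the lung, and all 8 were among the 15706 genes with enough counts to be tested. They were chosen when a lower level of erythroid genes in the tangeretin group was already known from these libraries, so the comparison between the groups is given below as a description and supports nothing by itself.

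The RNA came from lung tissue of wild type male ICR mice, an outbred strain, aged 6 to 8 weeks. Per the study's methods the left lobes went to histology and the other lobes were frozen, so each sample, called a lung below, was a part of a lung, and the lobe sequenced is not stated. The LPS group (4 lungs) received 5 mg/kg LPS of Escherichia coli O111:B4 into the peritoneum. The LPS + Tan group (4 lungs) received the same LPS 30 min after an intraperitoneal injection of 50 mg/kg tangeretin, a flavone of citrus peel, and all lungs were taken 12 h after LPS. Both groups thus carried LPS, and no lung without LPS was analysed here. The 8 libraries held 38895654 to 39931970 counts each, and summed lung epithelial markers (among them Sftpc and Scgb1a1) stood at 17115 to 27111 CPM (counts scaled to library size) in every library, as the lung label asks. Nothing in the sources used here says whether blood was flushed from the lungs.

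Haemoglobin is a tetramer of alpha and beta chains, each holding a haem, and red cells fill with it while they mature in the bone marrow. Circulating mouse red cells have no nucleus and transcribe nothing, but the youngest of them, the reticulocytes, still carry globin mRNA and other messages made earlier. Lung tissue holds a large volume of blood in its capillaries, so reticulocyte RNA can be part of lung RNA. In such bulk samples, fewer cells of a type and less RNA per cell cannot be told apart.

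The coding sequences show how far the globin copies can be separated by reads of the coding part. The transcripts of Hba-a1 and Hba-a2 are 699 and 554 bases long, and those of Hbb-bs and Hbb-bt 628 and 703. Their untranslated parts were not compared, and reads from them may also separate the copies. On the GRCm38 annotation, Hba-a1 and Hba-a2 had 426 coding bases each with a single difference, C381T, and shared an identical run of 380 bases. Hbb-bs and Hbb-bt had 441 coding bases each with a single difference, C417T, and shared an identical run of 416 bases. Positions are counted from 1 at the A of the start codon, with the base of the gene named first written first. The stretch of 41 coding bases around each difference is shown because it is the only place in the coding sequence where a read tells the copies apart, with the differing base in capitals.
Hba-a1: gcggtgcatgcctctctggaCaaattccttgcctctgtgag
Hba-a2: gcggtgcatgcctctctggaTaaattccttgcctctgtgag
Hbb-bs: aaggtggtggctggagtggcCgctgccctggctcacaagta
Hbb-bt: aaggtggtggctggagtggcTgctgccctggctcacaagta
Reads from the remaining coding sequence match both copies, and the sources used here do not say how the counting placed them. The reference is that of C57BL/6J, whereas ICR mice are outbred, and which beta-globin haplotype these mice carried was not tested. The value of each copy and the split within a pair are therefore uncertain.

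The 250 bases before the transcription start (RefSeq, GRCm38.p6) were read for 7 of the 8 genes. Motifs named for classical elements of globin promoters were searched on both strands as GATAA (the GATA motif), CACCC (the CACC box, bound by KLF1 in erythroid cells), CCAAT and TATAA (the TATA box). GATAA stood in 22.6% of all 32851 promoters, CACCC in 52%, CCAAT in 33.8% and TATAA in 22.8%, and 318 promoters (0.968%) held all 4 motifs. All 4 globin promoters were among them. The windows of Hba-a1 (chr11:32283422-32283671, plus strand), Hbb-bs (chr7:103827929-103828178, minus strand), Hbb-bt (chr7:103813924-103814173, minus strand) and Alas2 (chrX:150547167-150547416, plus strand) are shown because the levels of these genes moved together across the lungs, as described below, with every motif match on either strand in capitals.
Hba-a1: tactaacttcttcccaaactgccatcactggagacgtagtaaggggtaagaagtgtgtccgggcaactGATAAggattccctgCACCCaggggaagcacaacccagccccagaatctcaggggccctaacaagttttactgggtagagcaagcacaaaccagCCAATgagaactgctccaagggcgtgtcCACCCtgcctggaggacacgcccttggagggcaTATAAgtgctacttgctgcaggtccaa
Hbb-bs: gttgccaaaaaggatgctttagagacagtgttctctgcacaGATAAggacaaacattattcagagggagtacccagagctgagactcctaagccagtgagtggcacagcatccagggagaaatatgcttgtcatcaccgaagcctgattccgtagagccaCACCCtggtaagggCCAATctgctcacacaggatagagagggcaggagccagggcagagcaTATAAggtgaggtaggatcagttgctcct
Hbb-bt: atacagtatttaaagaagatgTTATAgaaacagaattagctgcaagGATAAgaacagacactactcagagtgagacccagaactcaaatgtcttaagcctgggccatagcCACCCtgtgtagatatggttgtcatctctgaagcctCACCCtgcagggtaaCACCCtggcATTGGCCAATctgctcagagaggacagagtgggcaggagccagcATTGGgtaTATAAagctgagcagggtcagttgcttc
Alas2: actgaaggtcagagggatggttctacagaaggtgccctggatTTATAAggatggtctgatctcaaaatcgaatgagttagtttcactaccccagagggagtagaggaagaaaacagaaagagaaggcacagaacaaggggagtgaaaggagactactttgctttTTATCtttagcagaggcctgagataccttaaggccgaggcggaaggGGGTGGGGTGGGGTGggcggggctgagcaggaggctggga
In Hba-a1 the GATAA match began 182 bases before the start, the CACCC matches 167 and 60, CCAAT 88 and TATAA 27 bases before it. The Hba-a2 window shared a run of 247 of its 250 bases with that of Hba-a1. In Hbb-bs GATAA began 209, CACCC 90, CCAAT 76 and TATAA 29 bases before the start. Hbb-bt held 1 match of GATAA, 3 of CACCC, 3 of CCAAT and 2 of TATAA, counting both strands. Alas2 held GATAA on the other strand (as TTATC) 86 bases before the start, 3 matches of CACCC on the other strand (as GGGTG) and a pair of overlapping TATAA matches in TTATAA, and no CCAAT. Epb42 held 1 GATAA and 1 TATAA match, both on the other strand, and Bpgm held 3 CCAAT matches and none of the other motifs. A match is a description of the letters and says nothing about binding in these lungs.

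Hbb-bs and Hba-a1 were among the most abundant transcripts of the lung. The level per length was read as FPKM (fragments scaled to transcript length and library size), the authors' normalized value. Hbb-bs, encoding a beta chain of adult haemoglobin, had a mean of 2436 ± 804 FPKM in LPS lungs and 1725 ± 289 in LPS + Tan lungs (SD, n = 4 each), and ranked 13 of all genes by its mean over the 8 lungs. Hba-a1, an alpha chain, followed with 1177 ± 329 and 1012 ± 260 FPKM (rank 27). Hbb-bt stood at 310 ± 114 and 219 ± 62.1 FPKM (rank 203), and Hba-a2 at 42.5 ± 19.4 and 26.2 ± 12.4 (rank 1937). Alas2, the erythroid enzyme of the first step of haem synthesis, was close to Hba-a2 with 46.3 ± 15.4 and 34.6 ± 12.3 FPKM. Bpgm, which makes the 2,3-bisphosphoglycerate that lowers the oxygen affinity of haemoglobin, had 16.9 ± 3.01 and 15.3 ± 3.86 FPKM. Slc4a1, the anion exchanger band 3 of the red cell membrane, had 5.53 ± 3.04 and 4.99 ± 3.40 FPKM. Epb42, the membrane protein 4.2 that binds band 3, was lowest with 0.402 ± 0.319 and 0.396 ± 0.260 FPKM. In every lung Hbb-bs was above Hba-a1. Over the 8 lungs the ranges of Hbb-bs and Hba-a1 overlapped, as did those of Alas2 with Hba-a2 and of Hba-a2 with Bpgm, while the other neighbours in the order of means were apart.

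The 4 globins together took a small but uneven share of each library. Haemoglobin counts were 0.240%, 0.137%, 0.316% and 0.281% of all counts in LPS lungs 1 to 4, and 0.131%, 0.205%, 0.210% and 0.182% in LPS + Tan lungs 1 to 4. The means were 0.243% ± 0.0772 and 0.182% ± 0.0361 (SD, n = 4 each). LPS lungs 1, 3 and 4 lay above all LPS + Tan lungs, while LPS lung 2 lay beside the lowest, LPS + Tan lung 1. The 95% Wilson interval of LPS lung 2 ran from 0.136% to 0.138% and that of LPS + Tan lung 1 from 0.130% to 0.132%. Such intervals cover counting error only, and the spread between lungs was far wider, with 2.41 times between the highest and the lowest lung.

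Each alpha- and beta-globin gene had a lower mean in LPS + Tan lungs, with overlapping groups. Values between samples are given below as CPM scaled with TMM factors, and differences as the log2 fold change of LPS + Tan against LPS. Hbb-bs stood at 1586, 828, 2078 and 1853 CPM in LPS lungs 1 to 4 and at 827, 1249, 1166 and 1105 CPM in LPS + Tan lungs 1 to 4. The log2 fold change was -0.55 ± 0.25 (SE). The quasi-likelihood test of edgeR gave an adjusted p of 0.924 (Benjamini-Hochberg). LPS lungs 1, 3 and 4 were above every LPS + Tan lung, and LPS lung 2 was level with the lowest of them.

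Hbb-bt had 197, 106, 295 and 199 CPM in LPS lungs and 88.4, 182, 145 and 128 CPM in LPS + Tan lungs (log2 fold change -0.55 ± 0.29). Its order over the 8 lungs was that of Hbb-bs, with which it shares all but 1 coding base. Hba-a1 had 621, 421, 888 and 751 CPM in LPS lungs and 352, 593, 672 and 614 CPM in LPS + Tan lungs (log2 fold change -0.27 ± 0.25). Here LPS + Tan lung 3 exceeded LPS lungs 1 and 2, so the groups overlapped more than for the beta chains. Hba-a2 had 33.1, 8.10, 31.2 and 25.3 CPM in LPS lungs and 6.20, 14.9, 13.6 and 24.1 CPM in LPS + Tan lungs (log2 fold change -0.73 ± 0.45). Its lowest lungs were again LPS lung 2 and LPS + Tan lung 1. When the copies of a chain were summed before the fit, an analysis added after the data were seen, the alpha chain had a log2 fold change of -0.28 ± 0.25 and the beta chain of -0.55 ± 0.26 (adjusted p = 0.951 and 0.924 by edgeR).

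Of the 4 erythroid genes, Alas2 came nearest to the globins. It had 95.6, 51.9, 133 and 101 CPM in LPS lungs and 41.5, 94.1, 82.5 and 57.0 CPM in LPS + Tan lungs (log2 fold change -0.47 ± 0.30). LPS lungs 1, 3 and 4 were above all LPS + Tan lungs, as for Hbb-bs. Slc4a1 had 44.8, 10.8, 24.5 and 22.4 CPM in LPS lungs and 10.7, 38.4, 31.6 and 8.18 CPM in LPS + Tan lungs (log2 fold change -0.20 ± 0.52). Its highest lung was LPS lung 1, and LPS + Tan lungs 2 and 3 came next, above LPS lungs 3 and 4. Epb42 had 3.63, 0.506, 1.38 and 1.27 CPM in LPS lungs and 0.713, 2.26, 2.70 and 0.753 CPM in LPS + Tan lungs (log2 fold change -0.08 ± 0.60), on 522 counts in all. Bpgm had 33.6, 21.8, 29.1 and 24.8 CPM in LPS lungs and 19.6, 30.7, 27.1 and 18.8 CPM in LPS + Tan lungs (log2 fold change -0.19 ± 0.18). For these last genes the lungs of both groups were interleaved. Without LPS lung 1, the log2 fold change of Slc4a1 became 0.21 and that of Epb42 0.61. Each also changed sign without LPS + Tan lung 1 (0.02 and 0.16) and without LPS + Tan lung 4 (0.07 and 0.15).

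**Figure D1:**
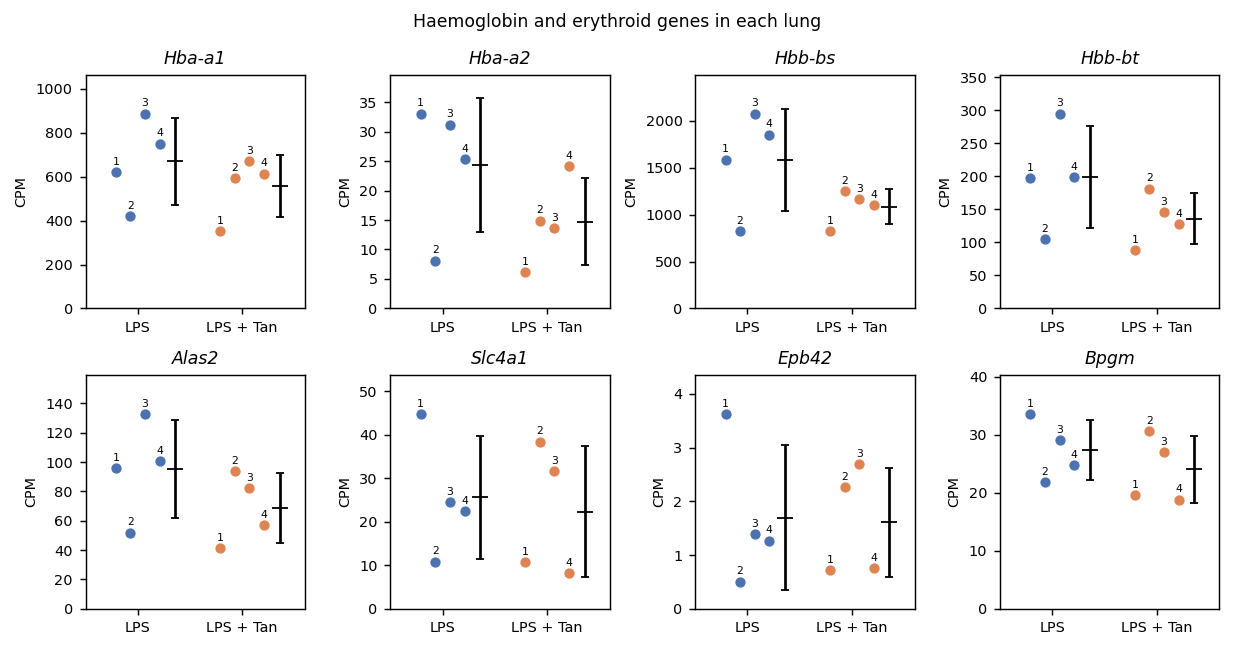
Level in CPM (vertical axes, from 0) of the 8 genes in each lung of the LPS group (blue) and the LPS + Tan group (orange), with the replicate number above each point and the mean ± SD (n = 4) in black. The groups overlapped for every gene, LPS lung 2 was the lowest LPS lung in 8 of 8 genes, and the highest of all lungs was LPS lung 3 for 4 genes and LPS lung 1 for the other 4.

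All 8 genes had a log2 fold change below 0, as had 48.2% of the 15706 tested genes, and their median was -0.37 beside 0.01 over all tested genes. The genes were chosen on this contrast, so nothing is read from the count. In edgeR, 0 of the 8 genes passed an adjusted p of 0.05 (0% of all tested genes passed), and 0 passed an unadjusted p of 0.05 in the lower direction (2.25% of all). DESeq2, run without the filter on low counts, gave 2 genes at an unadjusted p below 0.05, Hbb-bs (0.0268) and Hbb-bt (0.0499), both lower (2.08% of all genes in that fit), and 0 after adjustment. None passed the study's thresholds of an unadjusted p below 0.05 with a log2 fold change beyond 1 (0.649% of all in either direction), and the groups failed to overlap for 0 of 8 (2.73% of all in either direction). Without LPS lung 2, 4 of the 8 genes had an unadjusted p below 0.05 in edgeR, all lower (1.91% of all genes in that fit), with Hbb-bs at a log2 fold change of -0.76 and Hba-a2 at -1.02, and again 0 passed the adjustment. In that fit 1 of the 8 passed the study's thresholds (0.824% of all in either direction). Without LPS + Tan lung 4, Hba-a2, at a log2 fold change of -1.08, was the 1 gene at an unadjusted p below 0.05 (4.56% of all were lower) and past the thresholds (1.14% of all in either direction). Without LPS + Tan lung 2, Hbb-bt was the 1 gene at an unadjusted p below 0.05 (5.06% of all were lower).

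The split between the beta-globin genes and the ratio of alpha to beta varied less between lungs than the globin levels. Hbb-bt made up 9.66% to 12.7% of the beta-globin counts, with means of 11.1% ± 1.13 in LPS and 11.0% ± 1.30 in LPS + Tan lungs (SD, n = 4 each). Summed alpha over summed beta FPKM was 0.419, 0.525, 0.442 and 0.432 in LPS lungs and 0.446, 0.485, 0.597 and 0.591 in LPS + Tan lungs. The ratio was highest in LPS + Tan lungs 3 and 4, with overlapping groups. Hba-a2 took 5.05%, 1.89%, 3.39% and 3.25% of the alpha-globin counts in LPS lungs and 1.73%, 2.45%, 1.98% and 3.78% in LPS + Tan lungs. The highest share was 2.92 times the lowest, and it was lowest in the lungs with the least haemoglobin, LPS + Tan lung 1 and LPS lung 2. It rests on the bases that separate the copies and on how shared reads were counted, and the part of the counting in it was not tested.

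Across the 8 lungs, the higher correlations lay mostly among the globins and Alas2, and among Slc4a1, Epb42 and Bpgm. All 28 pairs had a positive Pearson correlation of log2 CPM, from 0.46 to 0.98 with a median of 0.78, and 13 pairs passed an adjusted p of 0.05 (exact permutation test over 40320 pairings, two-sided, adjusted over 28 pairs). By Spearman's rho 12 pairs passed, and 11 passed by both. These correlations include the difference between the groups, on which the genes were chosen, and the permutations ignored the groups. How many pairs of other genes reach such values was not tested. The 6 pairs of globins all passed by r, from 0.84 to 0.96, and 5 of them by rho. Hba-a1 with Hba-a2 did not pass by rho (0.74, adjusted exact permutation p = 0.0987). Copies of a chain share reads, so their r may depend in part on how these were counted, which was not tested. Alas2 was closest to Hbb-bt (r = 0.98, exact permutation p = 2.48e-05, the smallest this test can give, adjusted p = 0.000347, and rho = 1, exact permutation p = 4.96e-05, adjusted p = 0.000463). Without the 2 lungs farthest from the median of Hbb-bt, LPS lung 3 and LPS + Tan lung 1, r was 0.96. Pairs of Hba-a2 rested more on single lungs. Without LPS lung 2 and LPS + Tan lung 1, r went from 0.87 to 0.42 for Hba-a1 with Hba-a2, from 0.84 to 0.53 for Hba-a2 with Hbb-bt and from 0.78 to 0.30 for Hba-a2 with Alas2. The pair of Hba-a2 with Alas2 did not pass by r over all lungs (adjusted exact permutation p = 0.0531). It did pass by rho (0.86, adjusted exact permutation p = 0.0273).

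Slc4a1 was tied to Bpgm (r = 0.97, adjusted exact permutation p = 0.0037, and rho = 0.98, adjusted p = 0.00278) and to Epb42 (r = 0.94, adjusted exact permutation p = 0.00784, and rho = 0.88, adjusted p = 0.0253). Without the 2 lungs farthest from the median of Slc4a1, r was 0.93 with Bpgm and 0.98 with Epb42. With the globins the r of Slc4a1 was lower, from 0.46 for Hba-a2 to 0.67 for Hbb-bt, and no such pair passed. For Hba-a1 and Slc4a1, r was 0.52 over all lungs and -0.04 without LPS lung 2 and LPS + Tan lung 1, so the positive value rested on those lungs. For Hbb-bs and Epb42, r went the other way, from 0.54 to 0.89 without LPS lungs 3 and 4. Of the 16 pairs of a globin with an erythroid gene, 3 passed by r, each with Alas2. Alas2 also passed by r with Bpgm (r = 0.82, adjusted exact permutation p = 0.0356), and not by rho (0.67, adjusted p = 0.145). Without LPS lung 2 and LPS + Tan lung 1 their r was 0.72. The sets were noticed in these data, and the difference between the correlations was not tested. After removal of the group means, r was 0.98 for Hbb-bt with Alas2 and for Slc4a1 with Bpgm, and 0.50 for Hba-a1 with Slc4a1.

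**Figure D2:**
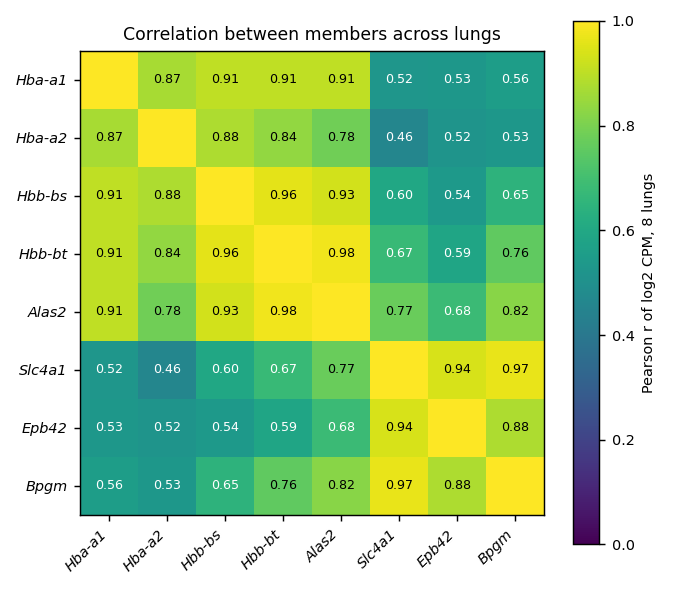
Pearson r of log2 CPM over the 8 lungs for each pair of the 8 genes (rows and columns, colour scale from 0 to 1, values in the cells). The globins and Alas2 form a block with r from 0.78 to 0.98 and Slc4a1, Epb42 and Bpgm a block with r from 0.88 to 0.97, while values between the blocks run from 0.46 to 0.82. The part of reads shared by the copies of a chain in these values was not tested.

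Set against haemoglobin counts within a lung, Alas2 varied little, whereas Slc4a1 and Epb42 divided the lungs. Alas2 had 30.4 to 46.2 counts per 1000 haemoglobin counts, with means of 38.3 ± 2.05 in LPS and 37.6 ± 7.38 in LPS + Tan lungs (SD, n = 4 each). Slc4a1 had 18.4, 7.94, 7.43 and 7.93 counts per 1000 haemoglobin counts in LPS lungs and 8.42, 18.8, 15.8 and 4.37 in LPS + Tan lungs. LPS lung 1 and LPS + Tan lungs 2 and 3 thus stood apart from the other 5 lungs, in both groups. Epb42 gave the same 3 lungs, with 1.49, 0.372, 0.420 and 0.449 counts per 1000 haemoglobin counts in LPS lungs and 0.560, 1.11, 1.35 and 0.403 in LPS + Tan lungs. Bpgm did not follow them, with 13.8, 16.0, 8.85 and 8.78 counts per 1000 haemoglobin counts in LPS lungs and 15.4, 15.0, 13.6 and 10.1 in LPS + Tan lungs. Its ratio was highest in LPS lung 2 and LPS + Tan lung 1, the lungs with the least haemoglobin. The group means of these ratios differed by less than 1 SD within the groups.

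**Figure D3:**
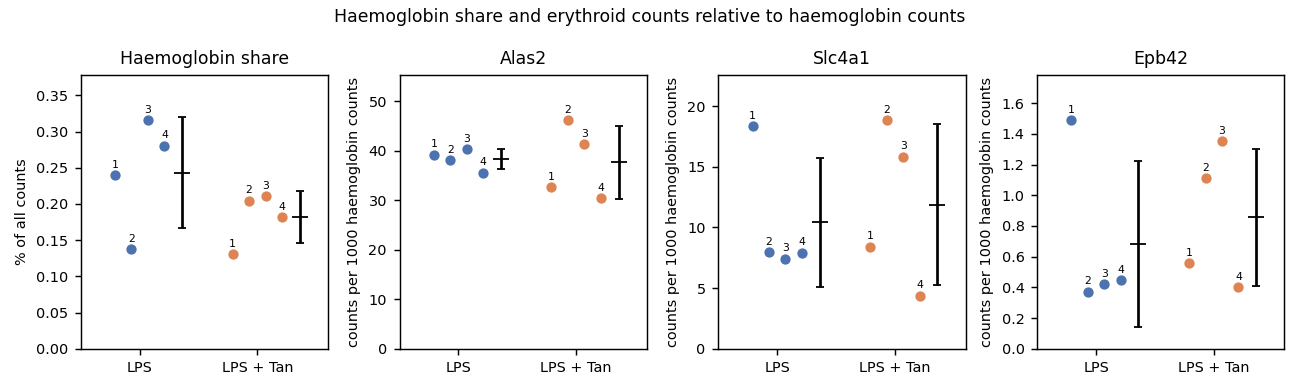
Haemoglobin counts as a percent of all counts, and counts of Alas2, Slc4a1 and Epb42 per 1000 haemoglobin counts (vertical axes, from 0), in each LPS lung (blue) and LPS + Tan lung (orange), numbered by replicate, with mean ± SD (n = 4) in black. Alas2 stays between 30.4 and 46.2 in all lungs, whereas Slc4a1 and Epb42 are highest in LPS lung 1 and LPS + Tan lungs 2 and 3.

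Some other genes of the red cell had a high correlation with Slc4a1. The 5 further lists (other globin loci, globin chaperone and haem synthesis, membrane and surface, enzymes and late maturation, regulators and receptors) held 67 genes of the tables, of which 63 were tested. Of these 63 genes, 10 (15.9%) had an r above 0.8 with Slc4a1 over the 8 lungs, beside 86 of all 15698 tested genes outside the 8 (0.548%). With Hbb-bs 0 of 63 reached that value, beside 118 of 15698 (0.752%), so the 0 is near that background. The difference between the correlations with Slc4a1 and with Hbb-bs was not tested. Among the 10 genes were Ermap, Rhag, Trim10, Hbq1b, Trim58, Xpo7 and Ube2o. Ermap encodes a membrane protein of erythroid cells, Rhag the Rh-associated glycoprotein of the red cell surface, and Trim58 a ubiquitin ligase of late erythroid maturation. These are descriptions over 8 lungs, and the part of library preparation in them was not tested. Of these genes Xpo7 and Ube2o had mean levels of 73.4 and 27.1 CPM, above the 23.9 CPM of Slc4a1, and the other 5 lay at low levels of 0.350 to 2.66 CPM.

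Ermap had 2.81, 0.506, 1.07 and 0.985 CPM in LPS lungs and 0.762, 1.86, 2.02 and 0.598 CPM in LPS + Tan lungs. Its highest lungs were LPS lung 1 and LPS + Tan lungs 3 and 2, as for Epb42 and, in another order, Slc4a1. Its r was 0.94 with Slc4a1 and 0.45 with Hbb-bs. Rhag had 2.10, 0.557, 1.41 and 1.40 CPM in LPS lungs and 0.271, 2.34, 1.09 and 0.338 CPM in LPS + Tan lungs, with an r of 0.94 and 0.71. Its lowest lungs were LPS + Tan lungs 1 and 4 and LPS lung 2, as for Slc4a1.

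**Figure D4:**
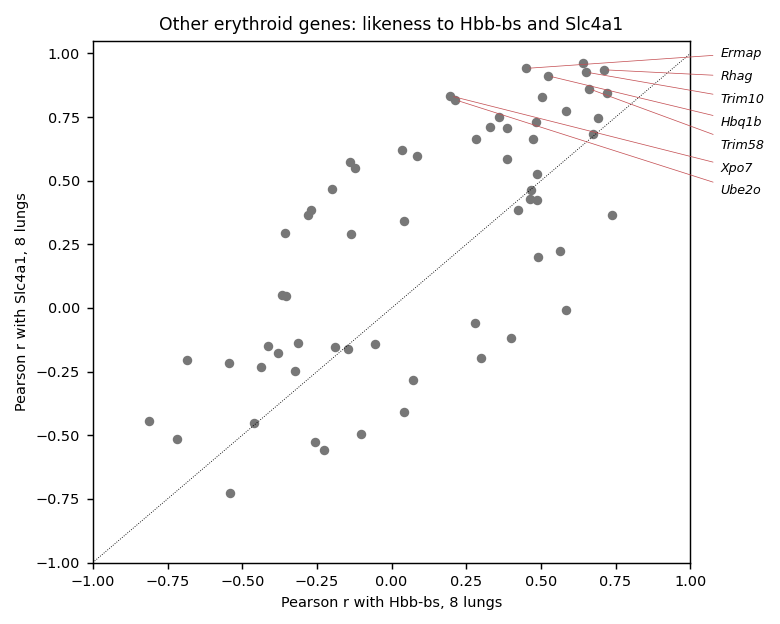
Pearson r over the 8 lungs of 63 other erythroid genes with Hbb-bs (horizontal axis) and with Slc4a1 (vertical axis), with a dotted line where both are equal and 7 of the 10 genes with an r above 0.8 with Slc4a1 named. The points lie above the line for 44 of the 63 genes (69.8%, beside 52.3% of all other tested genes), and no point passes 0.8 on the horizontal axis.

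Some genes of nucleated erythroid precursors were read at low counts. Gata1, the master regulator of the erythroid lineage, had 0.172 to 0.413 CPM, and Klf1, an activator of beta-globin transcription, 0.0522 to 0.511 CPM. Their counts over 4 lungs were 51 and 34 in LPS and 51 and 50 in LPS + Tan. Hemgn, a nuclear protein of erythroid precursors, had 0.366 to 1.40 CPM and Ahsp, the chaperone of free alpha-globin, 1.06 to 2.87 CPM. Ahsp had 614 counts in all, more than Epb42. Other genes of the list of regulators and receptors lay far higher, among them Zfpm1 with 20.2 to 32.4 CPM and Ldb1 with 66.2 to 85.4 CPM. The embryonic globin Hbb-y had 2 counts in all 8 lungs together.

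The comparison between the groups was also read for the other erythroid lists. Of the 63 tested genes 29 had a log2 fold change below 0, with a median of 0.03, beside 48.2% and 0.01 over all tested genes. At an unadjusted p below 0.05 in edgeR, 1 gene was lower and 2 were higher in LPS + Tan lungs (2.25% and 2.87% of all tested genes), and 0 passed the adjustment. The lower gene was Pklr, the pyruvate kinase of red cells and liver (-0.93 ± 0.38, adjusted p = 0.924). The higher genes were Zfpm1, the GATA cofactor FOG1 (0.44 ± 0.12, adjusted p = 0.85), and Ldb1, a bridging factor of GATA complexes (0.23 ± 0.08, adjusted p = 0.924), both of which other lung cells also express. By list, the median was 0.03 over 12 genes of globin chaperone and haem synthesis (lowest p for Cpox, Slc25a37 and Slc25a38), -0.07 over 20 genes of membrane and surface (Tspan33, Add2 and Ank1), 0.01 over 18 genes of enzymes and late maturation (Pklr, Car2 and Trim58) and 0.22 over 12 regulators and receptors (Zfpm1, Ldb1 and Kit). Below 0 were 5 of 12, 13 of 20, 9 of 18 and 1 of 12 genes of these lists. The summed level of the regulators and receptors was 450 to 484 CPM in LPS and 486 to 588 CPM in LPS + Tan lungs. Most of that sum came from Kit, Ldb1 and Tfrc, which other cells also express. Of the other globin loci only Hbq1b was tested (-0.27 ± 0.73).

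Lists for other blood cells were read beside the globins, with 48.2% of all tested genes below 0. Genes of a list can vary together, so nothing is read from the counts below 0. The platelet list had 9 of 12 genes below 0 with a median of -0.21, and its summed level was 38.6 to 42.6 CPM in LPS and 26.0 to 44.5 CPM in LPS + Tan lungs. Ppbp, a platelet chemokine, had 10.1, 11.3, 6.90 and 10.6 CPM in LPS lungs and 5.39, 7.60, 4.71 and 6.65 CPM in LPS + Tan lungs (log2 fold change -0.68 ± 0.20, adjusted p = 0.922 by edgeR). LPS lung 3, the richest in haemoglobin, was the lowest of its group for Ppbp, but not for every platelet gene. Over the platelet list, r with Hbb-bs ran from -0.55 to 0.61, and it was 0.23 for Ppbp. The B cell list had 5 of 6 genes below 0 with a median of -0.31 and summed to 21.6 to 38.5 CPM in LPS and 20.2 to 29.0 CPM in LPS + Tan lungs. The neutrophil list had 4 of 12 below 0 with a median of 0.04, and the T and NK cell list 2 of 8 with a median of 0.11. The lists of lung endothelium and lung epithelium had medians of -0.03 and -0.06. None of these genes passed the adjustment in edgeR, and Ppbp alone had an unadjusted p below 0.05. Of all tested genes 2.25% were lower and 2.87% higher at that p, so nothing is read from this count. The part of blood volume in these values was not tested.

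**Figure D5:**
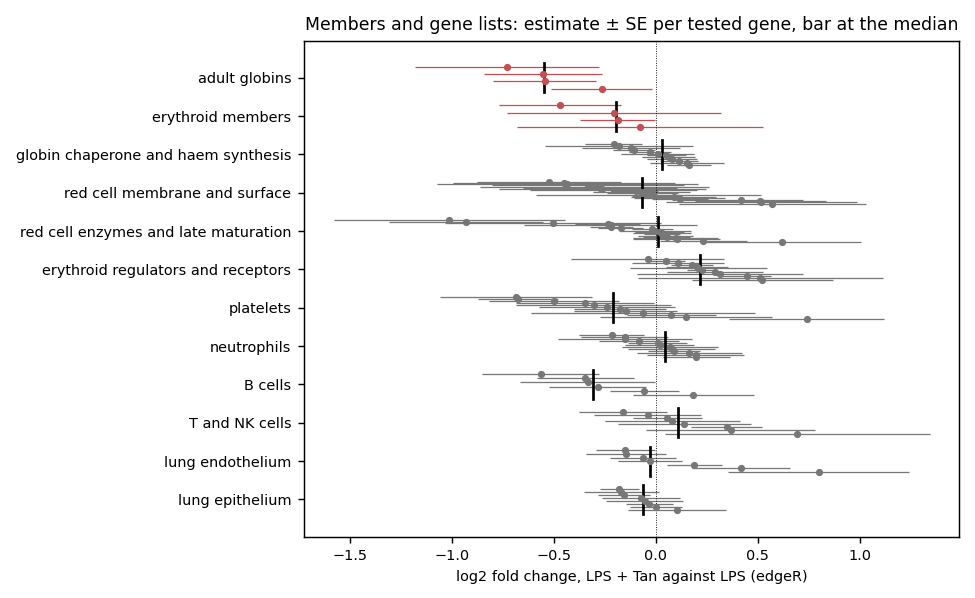
log2 fold change of LPS + Tan against LPS (horizontal axis, edgeR estimate ± SE) for each tested gene of 12 lists (rows), with the 8 globin and erythroid genes in red, other genes in grey and a black bar at each list's median. The globin bar lies at -0.55 and that of the other 4 red genes at -0.20, while the bars of the grey lists lie between -0.31 and 0.22.

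Genes of haem clearance were read last. Cd163, the macrophage receptor for haptoglobin bound to haemoglobin, had 11.8, 10.5, 9.82 and 6.81 CPM in LPS lungs and 17.6, 16.8, 11.8 and 10.1 CPM in LPS + Tan lungs (log2 fold change 0.53 ± 0.22, adjusted p = 0.924 by edgeR), with overlapping groups. Hmox1, which degrades haem, had a log2 fold change of 0.28 ± 0.14, haptoglobin (Hp) of -0.27 ± 0.22 and haemopexin (Hpx) of -0.51 ± 0.39, and none passed the adjustment.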

How the data were processed

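Total lung RNA was sequenced in 4 LPS and 4 LPS + Tan mice. The authors deposited a table of raw counts per gene and a table of FPKM values. The submitters' processing notes name the builds GRCm38 and mm10, and no aligner, counter or annotation is named in the sources used here. The study's methods name TRIzol and a VAHTS library kit, whereas the labels name another extraction and library kit. All sample columns were matched to the labels.

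Genes were kept by edgeR's filter (filterByExpr), scaled by TMM and tested over all genes with edgeR 4.0.16 (quasi-likelihood), with p-values adjusted by Benjamini-Hochberg. DESeq2 1.42.0, limma 3.58.1 (voom, and log2 of FPKM plus 1 or 0.1), other scalings and filters, a replicate block and leaving out each lung were the alternatives. The scripts were tested on simulated data. Correlations used log2 CPM after adding 0.5 counts. Fold changes and SE are those of edgeR. Globin coding sequences came from GENCODE and promoters from RefSeq. Depth was near equal, and shares carry 95% Wilson intervals.

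The 8 genes and all lists were chosen with earlier results of these data known. Named genes are the 8, Gata1, Klf1, Hemgn, Ahsp, 4 haem clearance genes, the 3 tested genes of lowest p in each other list, every further list gene at an unadjusted p below 0.05, and the 6 genes most like the mean of the 8. Those named for an r above 0.8, with the values of Ermap and Rhag, were chosen after their values were seen. Some genes that these rules name are not reported here.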

Additional observations from a re-analysis of the deposited data

Results flagged for a closer look

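LPS lung 1 stood far above the other LPS lungs in Slc4a1 relative to haemoglobin. It had 18.4 Slc4a1 counts per 1000 haemoglobin counts, beside 7.94 in the next LPS lung, and the gap was 0.953 of the range of the group. The same lung was apart for Epb42, with 1.49 counts per 1000 haemoglobin counts beside 0.449 in the next lung and a gap of 0.931 of the range. Both gaps exceed the 95% critical value of Dixon's test for 4 samples. Of 34 groups of 4 lungs examined, 2 were far apart in this way, and chance alone gives about 1.7. Both ratios have the same denominator and come from the same lung, so they are not independent. The LPS + Tan lungs 2 and 3 had similar ratios (18.8 and 15.8 for Slc4a1, 1.11 and 1.35 for Epb42).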

How the results depend on the processing

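The log2 fold changes of Hba-a1, Hba-a2, Hbb-bs, Hbb-bt, Alas2 and Bpgm stayed below 0 in every alternative, and none of the 8 genes reached an adjusted p of 0.05 in any. When a lung was left out, the values ran from -0.44 to -0.10 for Hba-a1, -1.08 to -0.48 for Hba-a2, -0.76 to -0.39 for Hbb-bs, -0.77 to -0.30 for Hbb-bt, -0.68 to -0.27 for Alas2 and -0.32 to -0.07 for Bpgm, so their size depended on single lungs. They were nearest to 0 without LPS lung 3 for Hba-a1, Hbb-bs, Hbb-bt and Alas2, without LPS + Tan lung 1 for Hba-a2 and without LPS lung 1 for Bpgm. Slc4a1 ran from -0.60 to 0.21 and Epb42 from -0.45 to 0.61 when a lung was left out. Epb42 was also above 0 by limma-voom (0.012), on log2(FPKM + 1) (0.0015), on log2(FPKM + 0.1) (0.025) and with the replicate block (0.017), and the cause was not tested. The number of genes at an unadjusted p below 0.05, 0 in edgeR, was 2 in edgeR without the filter on low counts (569 of all 24584 genes were lower at that p) and 2 by DESeq2, which was also run without it (511 of 24558), and 0 to 4 when a lung was left out (4 without LPS lung 2, 1 without LPS + Tan lung 2 or 4). Of all genes, 1.91%, 5.06% and 4.56% were lower at that p in these fits, beside 2.25% with all lungs. The number past the study's thresholds was 0 to 1, reaching 1 without LPS lung 2 or LPS + Tan lung 4, where 0.824% and 1.14% of all genes passed. Over all genes DESeq2 gave 35 at an adjusted p below 0.05 where edgeR gave 0. Unscaled totals moved the median of all genes to 0.05.

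Replicate numbers were checked for pairing. The deviations of same-numbered lungs correlated at 0.11, -0.02, -0.14 and 0.02, within the range of differently numbered lungs (-0.19 to 0.19). No pairing was seen, though a weak one would not show in this check. The block gave 0 genes at an adjusted p below 0.05. The median r of the 28 pairs was 0.70 to 0.82 when a lung was left out. Of the LPS + Tan minus LPS differences of the ratios, 3 changed sign, with ranges of -3.53 to 1.71 for Alas2 and -0.87 to 4.11 for Slc4a1 per 1000 haemoglobin counts, and of -0.76 to 0.26 percentage points for the Hbb-bt share. The difference of the haemoglobin share, -0.061 percentage points, was -0.097 without LPS lung 2 and -0.037 without LPS lung 3. Counting depth limited Epb42 (20 to 142 counts per lung), Gata1 and Klf1.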

Other observations

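The genes outside the 8 whose level was most like the mean of the scaled 8 over the 8 lungs were LOC118567379 (r = 0.95), Qsox1 (r = 0.95), Fam160a1 (r = 0.94), Atp23 (r = 0.93), Klk13 (r = 0.93) and Esrp1 (r = 0.92). Qsox1, a sulfhydryl oxidase, had 377, 310, 411 and 360 CPM in LPS lungs and 289, 355, 334 and 309 CPM in LPS + Tan lungs. Its spread was much smaller than that of the globins, and its lowest lungs were LPS + Tan lungs 1 and 4, with LPS lung 2 close to the latter. When each of the 8 was set against the mean of the other 7, Alas2 had an r of 0.96, and 0 of the 15698 other tested genes were closer to that mean. For Hbb-bt 3 genes were closer, for Hbb-bs 18, for Hba-a1 60, for Bpgm 65, for Slc4a1 120, for Hba-a2 142 and for Epb42 238. These are descriptions over 8 lungs, in which high values of r arise readily among many genes.

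Cytoglobin (Cygb), a globin of fibroblast-like cells and not of blood, had 11.0, 11.9, 12.5 and 11.3 CPM in LPS lungs and 15.9, 14.0, 13.4 and 14.0 CPM in LPS + Tan lungs. All LPS + Tan lungs were above all LPS lungs, as for 2.73% of all tested genes in either direction (log2 fold change 0.30 ± 0.10, adjusted p = 0.924 by edgeR). Mb, the myoglobin of muscle, had a log2 fold change of 0.21 ± 0.39 and Adgb of -0.06 ± 0.18. The list of cardiac muscle, which sheathes the pulmonary veins of the mouse, had 0 of 8 genes below 0 (48.2% of all tested genes). Its median was 0.34 (lowest p for Sln, Myh6 and Myl7). At an unadjusted p of 0.05 in edgeR 0 passed, beside 2.25% of all lower and 2.87% higher. Genes of a list can vary together, so nothing is read from these counts.

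In the remaining lists the genes of lowest p were Ppbp, Treml1 and Gp5 for platelets, Fcmr, Cd79a and Ms4a1 for B cells, Cd3g, Klrb1c and Cd4 for T and NK cells, Mmp8, Mmp9 and Ltf for neutrophils, Aplnr, Ednrb and Pecam1 for endothelium, Foxj1, Epcam and Scgb1a1 for epithelium, Ear2, Siglecf and Adgre1 for macrophages and Tcf21, Col1a1 and Pdgfra for mesenchyme. The macrophage and mesenchyme lists had medians of 0.04 and -0.15. None of these genes had an adjusted p below 0.05 in edgeR.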
